A study of Homo sapiens with 6 samples.

Results

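The insulin-like growth factor (IGF) axis was followed through 10 genes in HepG2 cells, out of 33616 named genes on the array. They are the ligands IGF1 and IGF2, the receptors IGF1R and IGF2R, the carrier subunit IGFALS, and the binding proteins IGFBP1, IGFBP2, IGFBP3, IGFBP4 and IGFBP6. The genes were listed by name, with earlier results of these data known. Each was read by the probe set that carries its symbol alone. All 10 were found, with 1 such probe set each. HepG2 is a human liver cancer cell line with many hepatocyte traits. Cells grown in RPMI medium with fetal calf serum received 30 nM of a scrambled siRNA (3 arrays) or of an siRNA specific for UHMK1 (3 arrays), both with Lipofectamine RNAiMAX, and total RNA was taken at 24 h. UHMK1 is a protein kinase that phosphorylates the splicing factor SF1. The labels do not say how many different siRNA sequences were used, nor whether the arrays of a group stem from separate cultures. The p-values therefore cover the spread between these samples alone, and that spread may be technical.

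IGF1 and IGF2 are small secreted growth factors that signal through the IGF1R tyrosine kinase, while IGF2R takes up IGF2 for breakdown in lysosomes and gives no growth signal of its own. In the circulation most IGF is held by IGFBPs, which prolong its life and limit its access to receptors. IGF1, IGFALS and IGFBP1 are products of the adult liver, and IGF2 is a growth factor of fetal liver that many liver tumours express. Insulin represses IGFBP1 in hepatocytes by keeping the transcription factor FOXO1 out of the nucleus.

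The 6 arrays were alike in depth of signal, except that UHMK1 siRNA array 2 stood apart. Its median log2 value over all probe sets was 4.55, where the other arrays had 4.40 to 4.43. Over genes with a mean log2 level of at least 8, the same array lay 0.25 below the mean of the scrambled siRNA arrays (median difference -0.25), where UHMK1 siRNA arrays 1 and 3 differed by -0.03 and -0.06. UHMK1 itself fell by 3.43 on the log2 scale (SE 0.20, limma adjusted p = 0.000113), and its arrays did not overlap between groups. The 9 measured hepatocyte markers had mean log2 levels of 14.4 to 19.1 and 0 of them passed the test. Of 17 markers of immune, endothelial and fibroblast or stellate cells 0 passed either. Among these, the immune markers LYZ and CD68 and the fibroblast or stellate markers ACTA2 and COL1A1 had a mean log2 level of at least 10, while the pan-leukocyte marker PTPRC lay between 4.66 and 5.33 on the arrays.

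IGFBP1, a secreted binding protein made by hepatocytes, fell after UHMK1 siRNA, while the other 9 IGF axis genes did not pass the threshold, an adjusted p under 0.05 in limma. Its log2 levels were 8.65, 9.03 and 8.51 on scrambled siRNA arrays 1, 2 and 3, and 6.95, 7.68 and 7.59 on UHMK1 siRNA arrays 1, 2 and 3. Every UHMK1 siRNA array was therefore below every scrambled siRNA array, with array 1 the lowest. The group means were 8.73 ± 0.27 and 7.41 ± 0.40 (SD, n = 3). UHMK1 siRNA minus scrambled siRNA gave -1.32 (SE 0.23, 95% confidence interval -1.84 to -0.81, limma adjusted p = 0.0156), a 2.50-fold fall on the deposited scale. The call was lost without scrambled siRNA array 1 (-1.36, adjusted p = 0.0647) or scrambled siRNA array 2 (-1.17, adjusted p = 0.0794), and it held without UHMK1 siRNA array 2 (-1.46, adjusted p = 0.0240). In RNA from a whole culture, fewer cells with a transcript and less of it per cell cannot be told apart.

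So 1 of the 10 genes fell and 0 rose, where 2.67% of all tested genes fell and 0.726% rose. Of the 10, 6 had a mean log2 level of at least 6, IGFBP1 among them. At that level 6.29% of all genes fell and 1.56% rose. Missing the threshold does not show that a gene stayed level. In 4 of the 10 genes every UHMK1 siRNA array was below every scrambled siRNA array, and in 1 every one was above, against 13.3% and 7.74% of all tested genes. At an unadjusted p under 0.05, 2 of the 10 were lower (IGFBP1 and IGFBP4) and 1 was higher (IGFBP2), where 10.1% and 5.21% of all tested genes were. The median change was -0.05, against -0.02 over all tested genes. A comparison of 3 arrays with 3 cannot give an exact permutation p below 0.1 for a single gene, so calls rest on the limma fit over all genes.

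**Figure D1:**
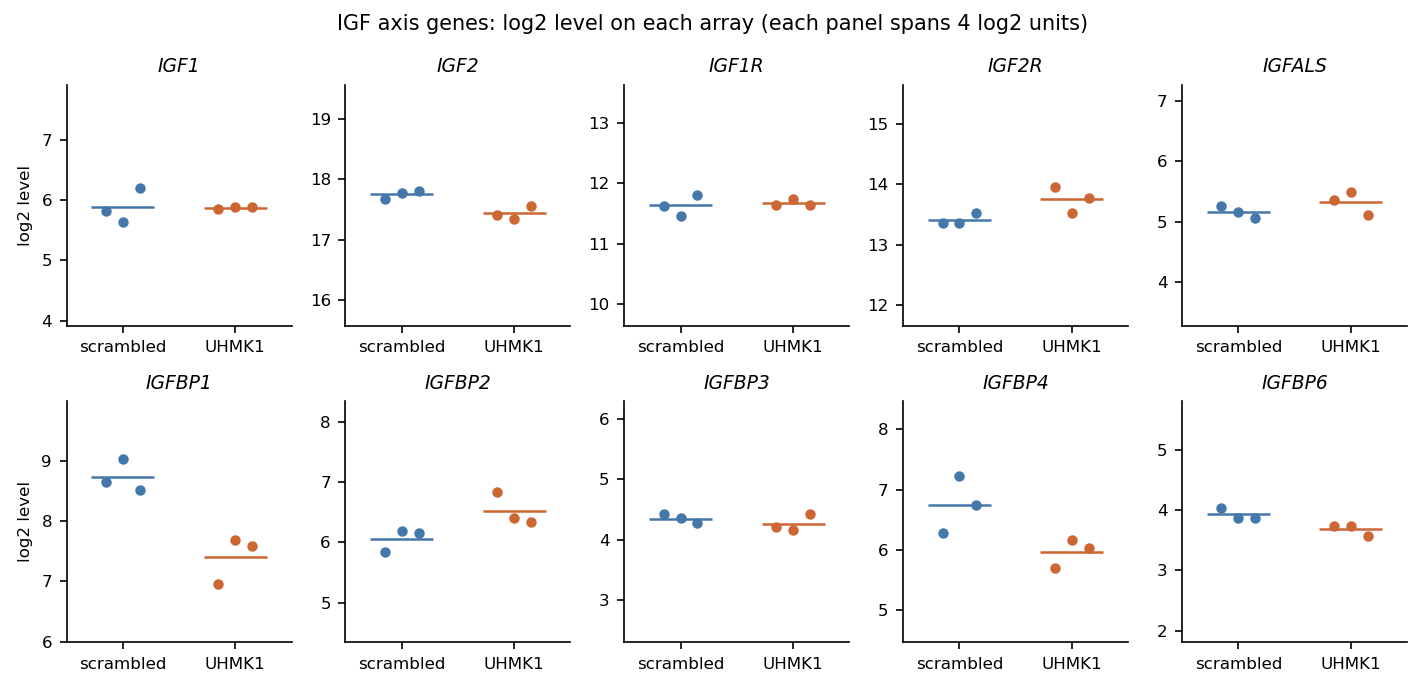
Log2 level (vertical axis) of the 10 IGF axis genes on each array, with scrambled siRNA in blue, UHMK1 siRNA in orange, points left to right for arrays 1 to 3 and a line at the group mean. IGFBP1 shows the widest gap, from a mean of 8.73 to 7.41, and the arrays of IGF2, IGFBP2, IGFBP4 and IGFBP6 also do not overlap between groups.

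**Figure D2:**
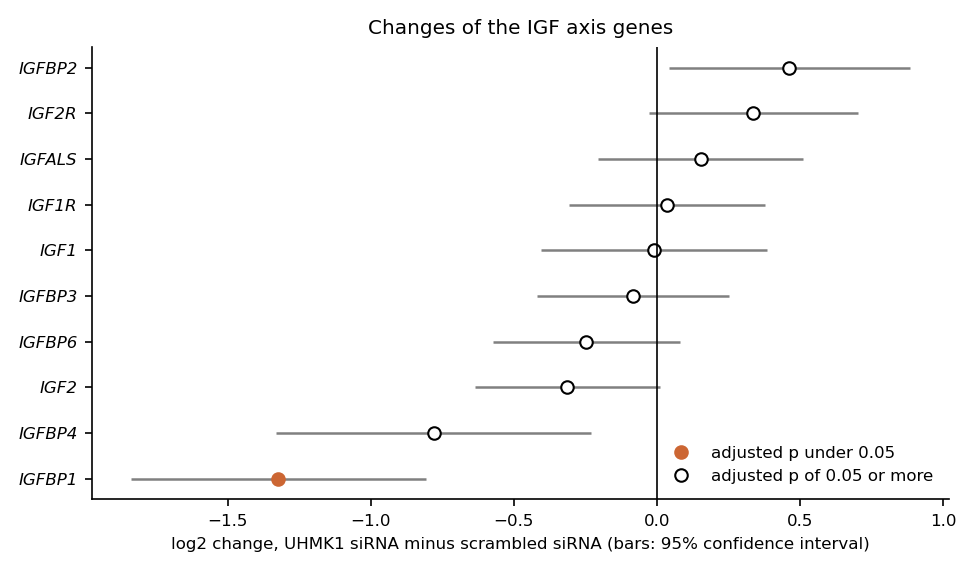
Log2 change (UHMK1 siRNA minus scrambled siRNA, horizontal axis) of each IGF axis gene with its 95% confidence interval from limma, a filled point marking an adjusted p under 0.05. Only IGFBP1 is filled, at -1.32, and IGFBP4 follows at -0.78.

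Of the ligands, IGF2 lay near the top of the scale and IGF1 in its lower part. IGF2 had log2 levels of 17.68, 17.77 and 17.80 after scrambled siRNA and of 17.41, 17.34 and 17.56 after UHMK1 siRNA. All 3 UHMK1 siRNA arrays lay below the scrambled siRNA arrays. The change was -0.31 (SE 0.14, 95% confidence interval -0.64 to 0.01, limma adjusted p = 0.347), from 17.75 ± 0.06 to 17.44 ± 0.11 (SD, n = 3), and so it did not pass. Without UHMK1 siRNA array 2 it was -0.27. The highest value on the arrays was 19.93, or 19.36 on UHMK1 siRNA array 2, and whether changes near the top of the scale are compressed was not tested. A further probe set is assigned jointly to IGF2 and the readthrough transcript INS-IGF2 and is not named as either. It gave 15.09, 15.05 and 14.89 after scrambled siRNA and 14.87, 14.60 and 14.84 after UHMK1 siRNA, a change of -0.24 (SE 0.17) in the fit over all probe sets. Its arrays also did not overlap between groups.

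IGF1, the hormone that adult liver secretes under growth hormone, had log2 levels of 5.82, 5.63 and 6.20 after scrambled siRNA and 5.86, 5.88 and 5.88 after UHMK1 siRNA. The groups overlapped fully and the change was -0.01 (SE 0.17, 95% confidence interval -0.40 to 0.38). Its sign turned without scrambled siRNA array 3 (0.15).

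The receptors gave no call in either direction. IGF1R, the receptor that carries the growth signal, had log2 levels of 11.63, 11.46 and 11.81 in the scrambled siRNA group and of 11.64, 11.73 and 11.64 in the UHMK1 siRNA group. These groups overlapped, with a change of 0.04 (SE 0.15, 95% confidence interval -0.31 to 0.38), which was -0.05 without scrambled siRNA array 2. IGF2R, which clears IGF2 and also sorts lysosomal enzymes, read 13.36, 13.36 and 13.53 after scrambled siRNA and 13.95, 13.53 and 13.78 after UHMK1 siRNA. The lowest UHMK1 siRNA array, array 2, tied with the highest scrambled siRNA array. It differed by 0.34 (SE 0.16, 95% confidence interval -0.03 to 0.70, limma adjusted p = 0.374), and by 0.45 (adjusted p = 0.197) without UHMK1 siRNA array 2.

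IGFALS, which binds IGF together with IGFBP3 or IGFBP5 in a large serum complex, was dim. Its log2 levels were 5.27, 5.17 and 5.06 after scrambled siRNA and 5.36, 5.49 and 5.11 after UHMK1 siRNA. The groups overlapped and the change was 0.15 (SE 0.16, 95% confidence interval -0.21 to 0.51). IGFBP3, the main carrier of IGF in serum, had log2 levels of 4.42, 4.35 and 4.27 in the scrambled siRNA group and of 4.20, 4.16 and 4.43 in the UHMK1 siRNA group. These levels lie close to the array medians, and the change of -0.08 (SE 0.15, 95% confidence interval -0.42 to 0.25) was within the spread. IGFBP3 is the nearest measured protein-coding neighbour of IGFBP1 on chromosome 7 on one side, in the gene order of GRCh38.p14.

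Of the smaller binding proteins, IGFBP4 had the next largest change after IGFBP1. IGFBP4, an inhibitor of IGF action that the protease PAPPA cleaves, read 6.28, 7.23 and 6.74 after scrambled siRNA and 5.71, 6.17 and 6.03 after UHMK1 siRNA. The groups did not overlap, but scrambled siRNA array 1 lay only just above the highest UHMK1 siRNA array. Its means were 6.75 ± 0.48 and 5.97 ± 0.24 (SD, n = 3), which differ by -0.78 (SE 0.24, 95% confidence interval -1.33 to -0.23, limma adjusted p = 0.146). It ranged from -1.02 without scrambled siRNA array 1 to -0.54 without scrambled siRNA array 2.

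IGFBP2, a binding protein abundant in fetal life and in many tumours, went the other way. Its log2 levels were 5.84, 6.18 and 6.16 after scrambled siRNA and 6.84, 6.40 and 6.33 after UHMK1 siRNA. Every UHMK1 siRNA array was above every scrambled siRNA array, with array 1 the highest. The change was 0.46 (SE 0.19, 95% confidence interval 0.04 to 0.88, limma adjusted p = 0.272), from 6.06 ± 0.19 to 6.52 ± 0.28 (SD, n = 3), and it was 0.31 without UHMK1 siRNA array 1. IGFBP6, which prefers IGF2 over IGF1, had log2 levels of 4.04, 3.87 and 3.87 in the scrambled siRNA group and of 3.73, 3.74 and 3.57 in the UHMK1 siRNA group. Its groups did not overlap, but the levels lie under the array medians, and the change was -0.25 (SE 0.14, limma adjusted p = 0.487).

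**Figure D3:**
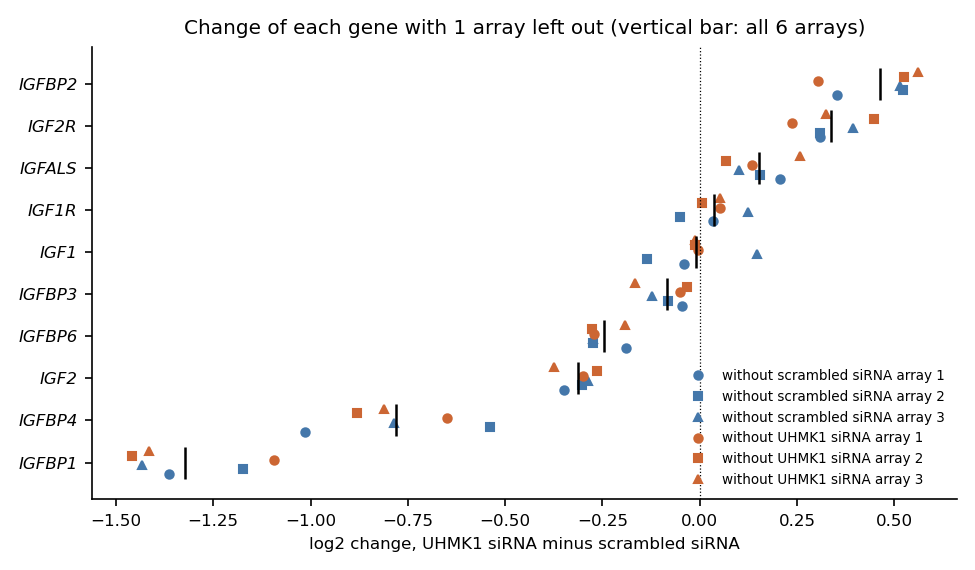
Log2 change (horizontal axis) of each IGF axis gene refitted with 1 array left out, blue for a scrambled siRNA array and orange for a UHMK1 siRNA array, beside a vertical bar at the value from all 6 arrays. IGFBP1 stays between -1.46 and -1.10 and IGFBP4 between -1.02 and -0.54, and IGF1 and IGF1R cross 0.

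Promoter sequences are shown for the binding proteins whose arrays separated the groups, so that genes that were lower (IGFBP4 and IGFBP6) and higher (IGFBP2) can be read side by side. RefSeq promoters of GRCh38.p14, from 250 bases before to 50 after a transcript start, were matched for 8 of the 10 genes, not for IGF2 and IGFBP1. Capitals mark the FOXO core GTAAACA, the GC box GGGCGG and the start-site element TATAAA on either strand. These marks do not overlap in the lines below. The IGFBP4 window lies at chr17:40443200-40443499, the IGFBP6 window at chr12:53097417-53097716 and the IGFBP2 window at chr2:216632578-216632877, all on the + strand. IGFBP2 has 3 listed starts, of which the first is shown.
IGFBP4: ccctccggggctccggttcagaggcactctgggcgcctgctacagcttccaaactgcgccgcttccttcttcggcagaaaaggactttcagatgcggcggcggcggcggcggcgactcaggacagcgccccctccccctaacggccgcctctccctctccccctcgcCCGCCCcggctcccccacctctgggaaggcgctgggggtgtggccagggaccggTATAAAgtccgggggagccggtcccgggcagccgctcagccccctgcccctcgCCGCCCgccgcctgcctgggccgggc
IGFBP6: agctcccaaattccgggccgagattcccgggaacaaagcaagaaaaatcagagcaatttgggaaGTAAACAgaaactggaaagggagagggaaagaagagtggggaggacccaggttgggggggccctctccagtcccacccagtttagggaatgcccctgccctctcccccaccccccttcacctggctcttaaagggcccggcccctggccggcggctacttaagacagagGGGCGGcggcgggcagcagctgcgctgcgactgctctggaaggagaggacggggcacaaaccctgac
IGFBP2: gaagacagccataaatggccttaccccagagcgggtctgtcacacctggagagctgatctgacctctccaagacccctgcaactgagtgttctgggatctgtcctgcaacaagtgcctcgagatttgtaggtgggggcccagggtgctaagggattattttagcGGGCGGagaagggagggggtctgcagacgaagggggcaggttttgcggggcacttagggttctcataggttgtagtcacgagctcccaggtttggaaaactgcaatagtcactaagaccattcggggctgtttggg
The IGFBP4 window holds 2 GC boxes and 1 start-site element, the IGFBP6 window 1 FOXO core and 1 GC box, and the IGFBP2 window 1 GC box. A FOXO core also lies at the first of 2 listed starts of IGF1 (not shown), whose change was -0.01. Of all 35116 promoters in the table, 3.42% hold the FOXO core, 45.0% a GC box and 11.5% the start-site element. The E-box CACGTG was in 7.26% of all promoters and in 0 of these windows, whereas the IGF2R promoter held 3. The windows hold 30 CpG dinucleotides for IGFBP4 and 12 for IGFBP6, where the median over all promoters is 14. For IGFBP2 the count depends on the start, with 8 in the window shown and 28 and 6 at the other listed starts.

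Around the IGF axis, 120 further genes of the pathway were considered in 10 lists, and 110 of them were measured. Of these, 4 rose and 7 fell, or 3.64% and 6.36%, at a median change of -0.02. Of all tested genes 0.726% rose and 2.67% fell. A mean log2 level of at least 6 was reached by 77 of the 110, which include every called gene. So 4 and 7 of these 77 rose and fell, where 1.56% and 6.29% of all genes at that level did. At an unadjusted limma p under 0.05, 5.21% of all tested genes were higher and 10.1% lower. The lists below are read against these shares, and were chosen with earlier results of these data known. The other list entries were not analysed here.

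**Figure D4:**
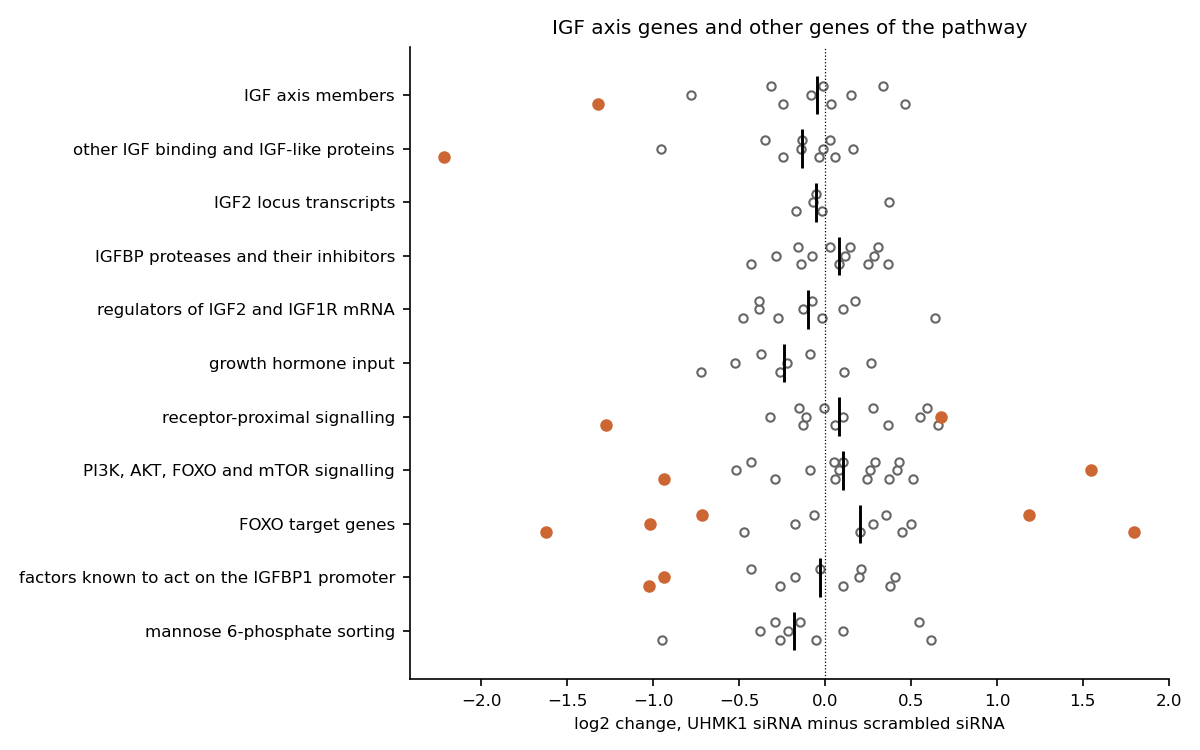
Log2 change (horizontal axis) of every measured gene of the IGF axis and of the 10 other lists, filled where the limma adjusted p was under 0.05, with a vertical bar at the median of each list. The filled points lie in the IGF axis, IGF binding, receptor-proximal, PI3K, FOXO target and IGFBP1 promoter factor lists, and the medians lie between -0.24 and 0.20.

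In the list of other IGF binding, IGF-like and related proteins, 1 of 11 measured fell (9.09%) and 0 rose. CCN2, a matricellular protein whose first domain resembles that of the IGFBPs, had log2 levels of 10.49, 10.31 and 10.40 in the scrambled siRNA group and of 8.66, 7.44 and 8.45 in the UHMK1 siRNA group. The groups lay far apart, with UHMK1 siRNA array 2 the lowest, and the fall was 2.22 (SE 0.29, limma adjusted p = 0.00417). IGFBP5 and IGFBP7, named after their values were seen, stood at 0.16 (adjusted p = 0.721) and -0.14 (adjusted p = 0.792), with scrambled siRNA means of 2.93 and 5.70. Of 13 IGFBP proteases and their inhibitors 0 passed in limma, nor did any at an unadjusted p under 0.05. The smallest p belonged to ADAM28 (0.37, adjusted p = 0.364) and MMP2 (-0.43, adjusted p = 0.385). ADAM28, a cell surface protease, was read by 2 probe sets that disagreed: the other one was at -0.51.

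Transcripts of the imprinted IGF2 region also gave 0 calls in limma among 5 measured, and 0 at an unadjusted p under 0.05. KCNQ1OT1, a long noncoding RNA of the neighbouring imprinted domain, stood at 0.37 (adjusted p = 0.335), and MIR483, a microRNA gene within an IGF2 intron, at -0.17 (adjusted p = 0.819). Of 10 regulators of IGF2 and IGF1R transcripts 0 passed, with 1 higher and 2 lower at an unadjusted p under 0.05. PLAG1, a zinc finger activator of IGF2 promoters, was 6.22, 6.62 and 6.28 after scrambled siRNA and 6.89, 7.38 and 6.77 after UHMK1 siRNA, a change of 0.64 (adjusted p = 0.148). LIN28B, which blocks let-7 processing, was at -0.48 (adjusted p = 0.220). IGF2BP1, an RNA-binding protein of IGF2 transcripts that was named after its values were seen, stood at -0.13 (adjusted p = 0.758).

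Of 8 genes of growth hormone input 0 passed in limma, with 0 higher and 2 lower at an unadjusted p under 0.05. STAT5B, the transcription factor through which growth hormone drives IGF1, stood at -0.72 (SE 0.22, adjusted p = 0.135), and its arrays did not overlap. CISH, a feedback inhibitor of that pathway, was at -0.52 (adjusted p = 0.290). Of 10 genes of mannose 6-phosphate sorting, the route in which IGF2R carries lysosomal enzymes, 0 passed, with 2 higher and 2 lower at an unadjusted p under 0.05. GGA2, an adaptor for IGF2R at the trans-Golgi, stood at -0.95 (SE 0.23, adjusted p = 0.0592), and NAGPA, which uncovers the mannose 6-phosphate tag, at 0.62 (adjusted p = 0.0854). GGA2 passed without UHMK1 siRNA array 1 (-1.17, adjusted p = 0.0348), after cyclic loess normalization (adjusted p = 0.0469), with the filter to a mean log2 level of at least 6 (adjusted p = 0.0188) and with the trend and robust variance model (adjusted p = 0.0289). With that filter NAGPA (adjusted p = 0.0254) and STAT5B (adjusted p = 0.0490) passed as well. A second, dimmer probe set of STAT5B was at -0.10, and the mean of both at -0.41.

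Close to the receptor, 1 of 14 measured signalling genes rose and 1 fell (7.14% each, against 0.726% and 2.67% of all tested genes). Of the 14, 12 had a mean log2 level of at least 6, where 1.56% of all genes rose and 6.29% fell. PTPN11, the phosphatase SHP2 that relays growth factor signals to RAS, read 12.92, 13.23 and 12.75 after scrambled siRNA and 11.42, 12.03 and 11.63 after UHMK1 siRNA. The groups did not overlap, and the fall was 1.27 (SE 0.20, limma adjusted p = 0.0108). That call was lost without scrambled siRNA array 1 (-1.30, adjusted p = 0.0508) or scrambled siRNA array 2 (-1.14, adjusted p = 0.0582). GAB1, a docking protein that binds SHP2, rose by 0.68 (SE 0.15, limma adjusted p = 0.0466), from 11.93 ± 0.08 to 12.60 ± 0.16 (SD, n = 3). It passed with UHMK1 siRNA array 2 left out (0.77, adjusted p = 0.0350) but with no other array left out (0.63 to 0.72, adjusted p from 0.126 to 0.170). The insulin receptor INSR and the adaptor IRS1, both named after their values were seen, stood at 0.55 (adjusted p = 0.0938) and 0.59 (adjusted p = 0.174), and neither overlapped between groups. NEDD4 at 0.66 (adjusted p = 0.0833) and SHC1 at -0.32 (adjusted p = 0.348), named in the same way, did not overlap either. In this list 5 of 14 were higher and 2 lower without overlap, against 7.74% and 13.3% of all tested genes.

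In the PI3K, AKT, FOXO and mTOR list 1 of 17 measured genes rose and 1 fell (5.88% each). PIK3R3, a regulatory subunit of PI3K, had log2 levels of 8.90, 8.76 and 8.84 in the scrambled siRNA group and of 10.47, 10.30 and 10.38 in the UHMK1 siRNA group. It rose by 1.55 (SE 0.14, limma adjusted p = 0.000940), with little spread in either group, and passed with any 1 array left out. FOXO1, which activates IGFBP1 when insulin signalling is low, read 8.49, 8.40 and 8.40 after scrambled siRNA and 7.71, 7.18 and 7.59 after UHMK1 siRNA. The fall was 0.94 (SE 0.17, limma adjusted p = 0.0210). Without scrambled siRNA array 1, 2 or 3 its adjusted p was 0.0964, 0.0880 and 0.0795, and without UHMK1 siRNA array 3 it was 0.0563, at changes of -0.99 to -0.91. A dimmer second probe set of FOXO1, with a scrambled siRNA mean of 4.84, was at 0.02 (SE 0.34), and the mean of both was at -0.46 (adjusted p = 0.427).

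Among 11 measured factors known to act on the IGFBP1 promoter, 0 rose and 2 fell (18.2%, against 2.67% of all tested genes). All 11 had a mean log2 level of at least 6, and at that level 6.29% of all genes fell. Those 2 were FOXO1 and AHR, the aryl hydrocarbon receptor. AHR fell by 1.02 (SE 0.14, limma adjusted p = 0.00637), from 15.07 ± 0.04 to 14.05 ± 0.13 (SD, n = 3). FOXO target genes moved in both directions: of 13 measured, 2 rose and 3 fell, at a median of 0.20. These counts are 15.4% and 23.1%, where 0.726% and 2.67% of all tested genes rose and fell. Of the 13, 10 had a mean log2 level of at least 6, where 1.56% of all genes rose and 6.29% fell. The rises were those of SESN3 (1.19, adjusted p = 0.00419), a sestrin that restrains mTORC1, and the cyclin CCNG2 (1.80, adjusted p = 0.00173). The falls were those of the thioredoxin inhibitor TXNIP (-1.62, adjusted p = 0.00911), the pseudokinase TRIB1 (-1.02, adjusted p = 0.0172) and the cell cycle inhibitor CDKN1B (-0.72, adjusted p = 0.0292). Each of these 5 was without overlap between groups, which adds no support, since the test on the same arrays chose them. Of all tested genes 7.74% were higher and 13.3% lower without overlap. Second, dimmer probe sets of CCNG2 and SESN3 were at 0.24 and -0.03, and the mean of both probe sets was 1.02 (adjusted p = 0.0247) for CCNG2 and 0.58 (adjusted p = 0.0912) for SESN3. CDKN1B did not pass when any single array was omitted (-0.78 to -0.68, adjusted p from 0.0589 to 0.129), and TRIB1 lost it without scrambled siRNA array 2 (-0.94, adjusted p = 0.0891) or 3 (adjusted p = 0.0769).

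**Figure D5:**
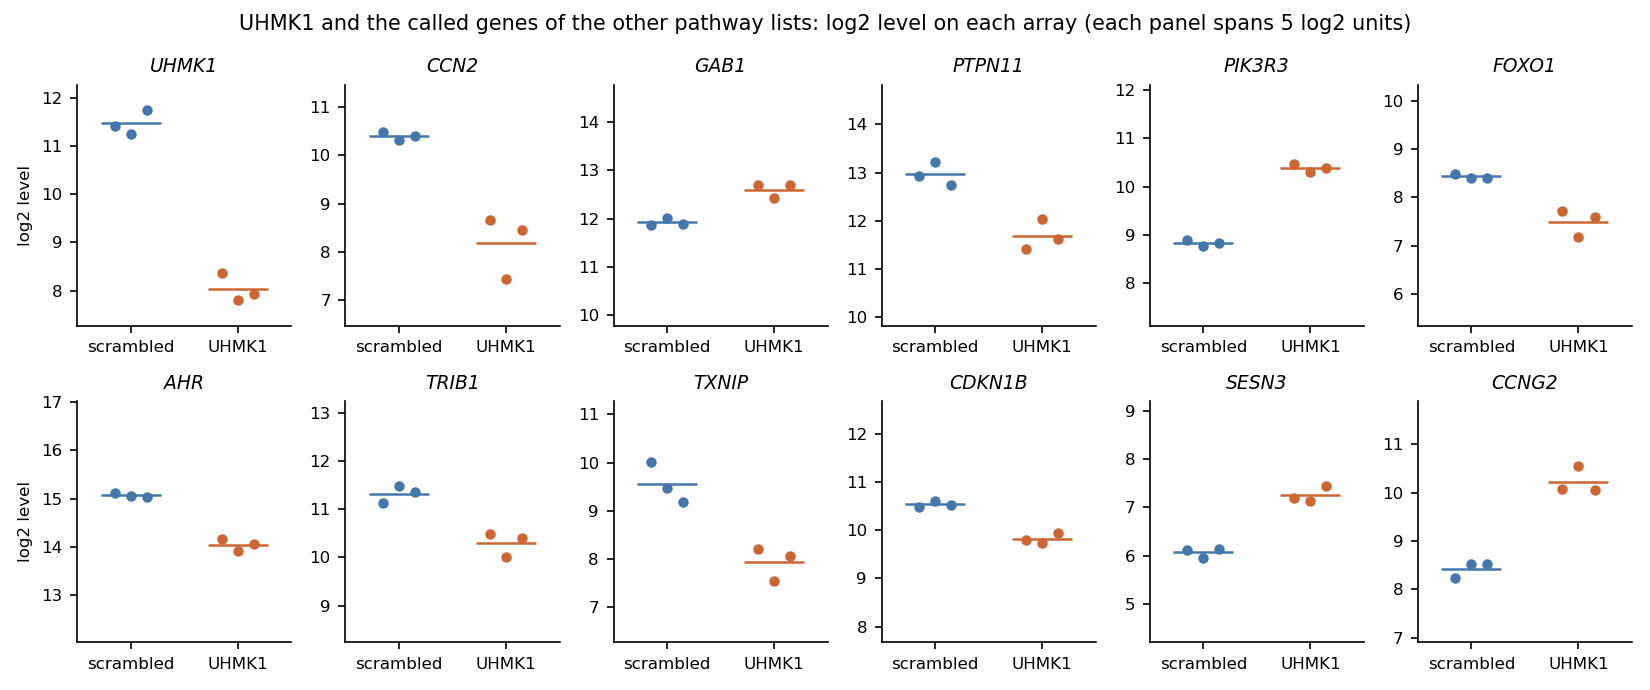
Log2 level (vertical axis) on each array of UHMK1 and of the 11 other pathway genes past the threshold, scrambled siRNA in blue and UHMK1 siRNA in orange, points left to right for arrays 1 to 3 and a line at the mean. No panel overlaps between groups, but the 11 pathway genes were chosen by the test on the same arrays. PIK3R3, GAB1, SESN3 and CCNG2 are the ones that are higher after UHMK1 siRNA.

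The genes whose log2 levels were most like those of IGFBP1 over the 6 arrays, among 13546 others with a mean level of at least 6, were SHB, GNL3L, ID3, MPZL2 and PTMS. Their Pearson correlations were 0.988 to 0.994, given as a description, since the 2 groups of arrays set most of such a value. SHB encodes an adaptor of receptor tyrosine kinases, GNL3L a nucleolar GTP-binding protein, ID3 an inhibitor of helix-loop-helix transcription factors, MPZL2 a cell adhesion protein and PTMS parathymosin. ID3 fell by 1.49 (adjusted p = 0.00627), MPZL2 by 1.08 (adjusted p = 0.0108) and GNL3L by 0.71 (adjusted p = 0.0410). SHB stood at -0.57 (adjusted p = 0.0830) and PTMS at -0.26 (adjusted p = 0.448). ID3 read 11.07, 11.49 and 10.95 after scrambled siRNA and 9.37, 9.98 and 9.69 after UHMK1 siRNA. Like IGFBP1, each of these genes was highest on scrambled siRNA array 2 and lowest on UHMK1 siRNA array 1. Choosing them by correlation on the same arrays favours such a shared order.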

How the data were processed

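The deposited table gives log2 expression values for 135750 probe sets on 6 arrays. Per the submitters' processing notes, the authors used RMA in Transcriptome Analysis Console 4.0 to make them. RMA corrects background, normalizes arrays by quantiles and summarises probes, so it brings the overall levels of arrays close to each other and can compress large changes. The values were used as deposited. The array's gene table gave 1 symbol to 36176 probe sets, several to 1119 and did not list 98455. Symbols were updated by Entrez gene ID to RefSeq of GRCh38.p14, and of several probe sets of a gene the one brightest on average was kept, which left 33616 genes. The probe sets' genome build is not given in these sources.

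The groups were compared by limma 3.58.1 under R 4.3.3 (two-sided moderated test, lmFit then eBayes, no covariates), with Benjamini-Hochberg adjustment over all genes. The procedure was tested on simulated data with independent normal values and no array effects. That checks the code and not the calls on these arrays. The number of arrays limits the precision. Changes are UHMK1 siRNA minus scrambled siRNA. The IGF axis genes, lists and tests were chosen with earlier results of these data known. Named by rule are all IGF axis genes, every called gene of a list or the 2 with the smallest p where none was called, and the 5 genes most like the IGF axis gene with the smallest p. Outside that rule, IGFBP5, IGFBP7, IGF2BP1, INSR, IRS1, NEDD4 and SHC1 were named after their values were seen. UHMK1, some cell type markers and neighbours by position are named as well. Alternatives were other normalizations, filters, probe set rules, variance models, a replicate block, arrays left out and a fit over all probe sets.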

Additional observations from a re-analysis of the deposited data

How the results depend on the processing

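The count of 1 fall and 0 rises among the IGF axis genes held under quantile and cyclic loess normalization. It also held with the filter to a mean log2 level of at least 6 and with the trend and robust variance model. A required 2-fold change could not alter it, since IGFBP1 fell by more than that. Both other probe set rules leave the levels of these 10 genes unchanged, since each has 1 probe set. Under those rules only the other genes of the fit differ, and the count was the same. With 1 array left out the falls ranged from 0 to 1. In a fit over all 135750 probe sets, chosen after seeing the data, 0 fell (IGFBP1 at -1.32, adjusted p = 0.110, where p-values are adjusted over more features). Over its alternatives IGFBP1 ranged from -1.46 to -1.10 (adjusted p from 0.00440 to 0.110). Of 136 values for the 10 genes, 131 kept sign and side of the threshold, 3 lost the IGFBP1 call, and IGF1 (0.15 without scrambled siRNA array 3) and IGF1R (-0.05 without scrambled siRNA array 2) changed sign. The 136 values include those of both other probe set rules, whose changes equal the main ones by construction. With 1 array left out IGF1 ranged from -0.14 to 0.15, IGF1R from -0.05 to 0.13 and MIR483 from -0.43 to 0.053.

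Of all tested genes 1141 passed, against 389 to 899 with 1 array left out, 2087 with the filter on dim genes, 583 with a required 2-fold change and 296 over all probe sets. Of the other pathway genes, 4 rose and 7 fell, against 3 to 5 and 3 to 7 with 1 array left out, 8 and 12 with the filter on dim genes, and 3 and 1 over all probe sets. ADAM28 changed sign with the probe set of the largest interquartile range (-0.51) and with the mean of its probe sets (-0.072), and MIR483 did without UHMK1 siRNA array 1. With the mean of all probe sets of a gene, FOXO1 stood at -0.46 (adjusted p = 0.427), SESN3 at 0.58 (adjusted p = 0.0912), CCNG2 at 1.02 (adjusted p = 0.0247) and STAT5B at -0.41 (adjusted p = 0.247). The filters, omitted arrays and wider fit change the number of features or samples by construction, and beyond that the cause was not tested.

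The values gave no sign that the replicate numbers pair the arrays. Deviations of equally numbered arrays correlated at 0.05, 0.03 and -0.04, and not every array was most like its own number. Such correlations cannot exclude that equally numbered arrays were prepared together. With the replicate number as a block, 722 genes passed and IGFBP1 kept its call (adjusted p = 0.0185), while GAB1 (adjusted p = 0.110) and CDKN1B (adjusted p = 0.0787) lost theirs and GGA2 gained one (adjusted p = 0.0444).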

Other observations

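The nearest measured protein-coding neighbours of the IGF axis genes, up to 2 on either side in the gene order of GRCh38.p14, were looked up by position after the values above were seen. On chromosome 7, where IGFBP1 fell by 1.32, RAMP3 stood at 0.06, ADCY1 at -0.11, IGFBP3 at -0.08 and TNS3 at 0.31, and their arrays overlapped between groups. On chromosome 17, beside IGFBP4 (-0.78), TNS4, a tensin of focal adhesions, fell by 2.50 (SE 0.18, limma adjusted p = 0.000377), from 7.51, 7.27 and 7.74 after scrambled siRNA to 5.25, 4.98 and 4.80 after UHMK1 siRNA. The other measured neighbours of IGFBP4 were GJD3 at 0.20, TOP2A at -0.10 and CCR7 at -0.07. Of the neighbours that did not pass, ARRDC4 beside IGF1R had the smallest adjusted p (-0.64, adjusted p = 0.0678), without overlap between groups. Next to IGF2R, the cation transporter SLC22A2 stood at -0.92 (adjusted p = 0.0922), opposite in sign to the 0.34 of IGF2R. SLC22A2 was dim, between 3.78 and 5.1 on the arrays. Apart from TNS4 and IGFBP1 itself, 0 of these neighbours passed.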
